A study of Mus musculus with 14 samples.

Results

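Nuclear genes for the oxidative phosphorylation (OXPHOS) machinery were compared by complex in the hippocampus of mice kept under intermittent hypoxia (IH), sustained hypoxia (SH) or room air. The members were all rows of the gene table whose symbol begins as the Nduf subunits of complex I, the Sdh subunits of complex II, the Uqcr subunits of complex III, the Cox4 to Cox8 subunits of complex IV or the Atp5 subunits of complex V do, together with Cyc1, Cycs and the Uqcc assembly factors of complex III. The rule found 55 of the 7756 genes of the table. Of these, 32 carry complex I names, 2 belong to complex II, 7 to complex III, 10 to complex IV and 4 are assembly factors. The 32 include Ndufa4, Ndufa4l2 and the Ndufb4 retrocopies, which are grouped with complex I by name in its counts and medians below. The GENCODE vM39 annotation holds 96 protein-coding genes that the rule fits. Of these, 53 were analysed, and the other 2 members are the Ndufb4 retrocopies Ndufb4b and Ndufb4c. The remaining 43 protein-coding genes were not analysed here. They include all 18 Atp5 genes, so that complex V has no value below, and also Cycs, Sdha, Sdhd, Uqcrc2, Uqcrh, Ndufs1, Ndufs3, Ndufv1, Ndufv2 and Cox7b.

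The RNA came from wild-type male C57BL/6J mice aged 8 weeks at the start and exposed for 28 days. The IH group (n = 5) breathed oxygen that switched between 10% and 21% with a cycle of 2 min during 8 h of each day, the SH group (n = 5) breathed 10% oxygen during 8 h of each day, and the control group (n = 4) stayed at 21%. Per the study's methods, IH and SH were delivered by different gas systems, and the control tissue came from a preliminary experiment. Exposure and experiment therefore cannot be told apart in either comparison against control. The same methods state that hippocampi were collected after behavioural tests that followed the exposure, among them passive avoidance with an electric shock. Whether the control tissue of the preliminary experiment was collected after such tests is not stated. The deposited table is itself a selection: per the study's methods, its rows are genes above a count limit in each group whose processed signal differed from control by at least 0.25 on the log2 scale. On a rebuilt scale of that kind, 94.0% of all genes and 52 of the 55 members reached 0.25 in 1 or more exposed libraries, and 50.7% of all genes and 38 members reached it in the mean of IH or SH. Counts and medians over the members, and the shares of all genes beside them, therefore describe genes already selected for a difference from control, and say nothing of the OXPHOS genes outside the table. Libraries are numbered within each group and no label says that each is a separate mouse, so p-values measure the spread between these libraries.

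The respiratory chain sits in the inner mitochondrial membrane. Complex I takes electrons from NADH and complex II takes them from succinate, both pass them to ubiquinone, complex III hands them on to cytochrome c, and complex IV gives them to oxygen. Complexes I, III and IV pump protons as they work, and complex V, the ATP synthase, uses the gradient. Neurons rely on this chain for most of their ATP, and nearly all of its subunits are small proteins encoded in the nucleus that join a few encoded in the mitochondrial genome. None of the 13 protein-coding genes of the mitochondrial genome was analysed here.

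The libraries held between 7203659 and 11777101 counts. A normalized count below is the deposited count divided by the library's relative size after trimmed-mean (TMM) scaling, so that it reads as a count in a library of average depth. The members took between 0.942% and 1.00% of the counts of the control libraries, 0.805% to 0.967% in IH and 0.812% to 0.888% in SH. All 8 hippocampal neuron markers looked for were present, with summed normalized counts of 27120 to 38560 over the 14 libraries. The 15 choroid plexus markers, which belong to an adjoining epithelium, were all present and their sums ran from 4083 to 124100 in control, 5169 to 75200 in IH and 4744 to 92190 in SH (medians 5002, 11510 and 31030). Summed neuron markers (6 of 8 analysed) ran from 162800 to 177800 in control, 145800 to 171900 in IH and 141300 to 172200 in SH, and oligodendrocyte markers (5 of 6) from 69730 to 104200, 80050 to 182300 and 79570 to 138300. Microglia markers (3 of 6) were lower in every SH library (2442 to 3132) than in every control library (3204 to 3453), with IH at 3019 to 3552. Erythrocyte markers (5 of 5) were lower in every IH library (1649 to 2304) than in every control library (2926 to 3189), with SH at 2203 to 3081. The part of these shifts in the differences below was not tested, beyond the choroid plexus covariate given there. IH replicate 3 stood apart from the other IH libraries: its median log2 difference from the control mean over the OXPHOS genes was 0.0021, against -0.24 to -0.17 in the other 4. In bulk tissue, fewer cells of a type and less RNA per cell cannot be told apart.

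Most OXPHOS genes analysed had log2 fold changes below 0 under both exposures, and those that passed the test were nearly all lower than control. In the SH group 27 of the 54 genes tested were lower and 1 was higher, and in the IH group 10 were lower and none was higher. Of all genes tested, 10.5% were lower and 10.2% higher in SH, and 4.85% were lower and 6.08% higher in IH. Complex III had 5 of 7 genes lower in SH and none in IH. Complex I had 16 of 31 genes lower and 1 higher in SH, and 6 lower in IH. The 1 of 31 higher in SH is below the share of all genes. A gene is called lower or higher where edgeR's quasi-likelihood test gave a Benjamini-Hochberg adjusted p under 0.05 over all 7338 genes tested. A further fit removed from each library its smooth trends of level on GC content and transcript length, and where a call against control ended in it, this is said beside the gene as "with the trends removed". Ndufa4l2 is the member that was not tested, because its mean count was under 40 in one or more groups.

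**Figure D1:**
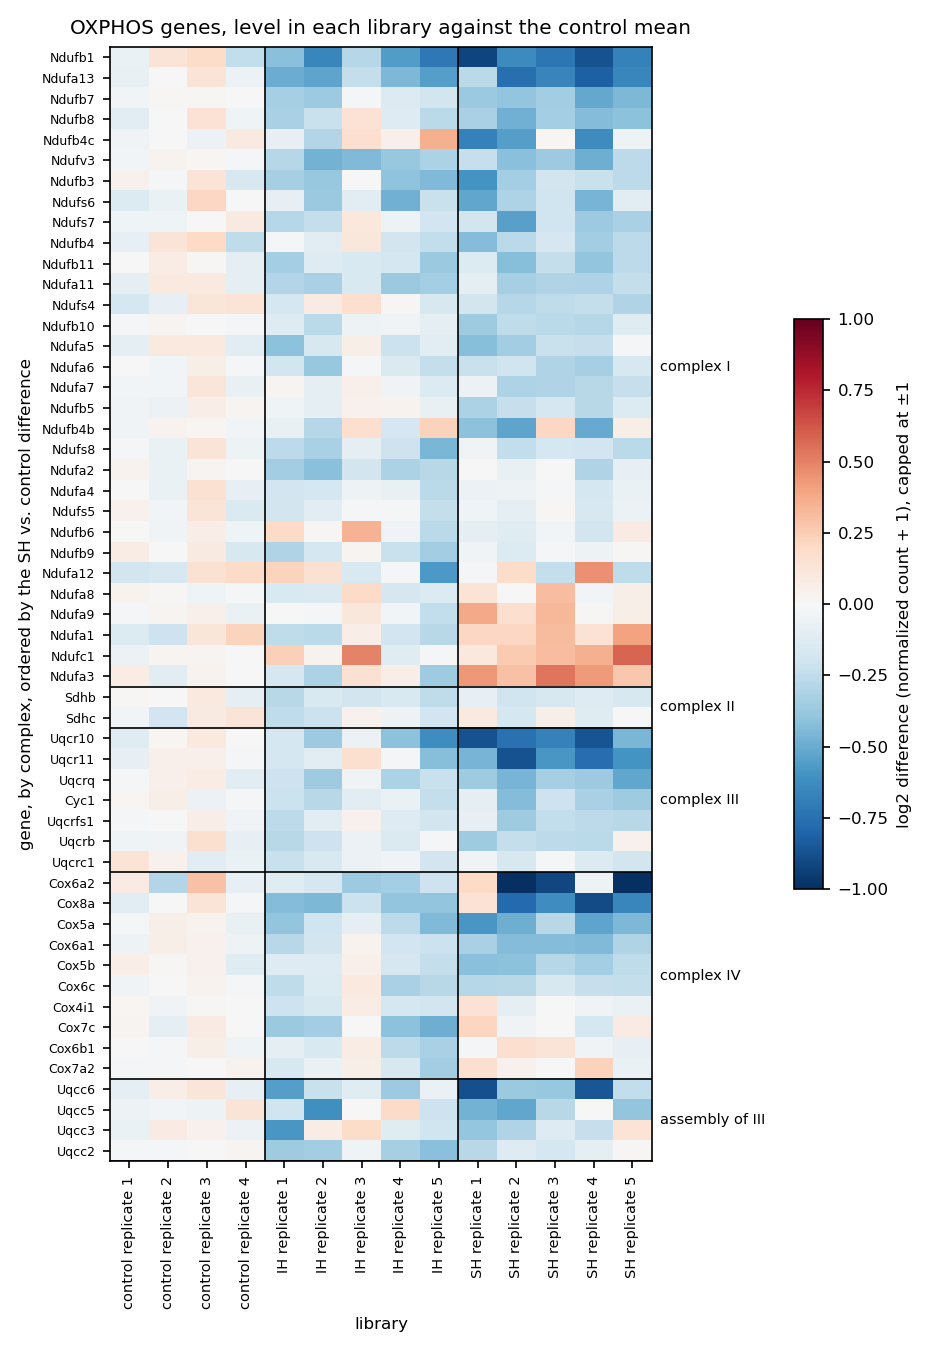
Log2 difference of each OXPHOS gene (rows, grouped by complex) from its control mean in each of the 14 libraries (columns), on normalized count + 1; blue is lower and red higher than control, with the colour capped at 1. Complex III genes are mostly blue in the SH columns, and IH replicate 3 is paler than the other IH columns.

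Compared with the control group, the IH group had lower transcript levels of 10 OXPHOS genes. They were Ndufa2, Ndufa11, Ndufa13, Ndufb1, Ndufs8 and Ndufv3 of complex I, Sdhb of complex II, Cox5a and Cox7c of complex IV, and the assembly factor Uqcc2. These 10 are 18.5% of the 54 genes tested, while 4.85% of all genes tested were lower in IH and 6.08% were higher. The median log2 fold change was -0.15 over the OXPHOS genes and -0.015 over all genes tested, and 51 of the 54 values were negative. At an unadjusted p under 0.05, 23 OXPHOS genes were lower and 0 were higher, against 14.4% and 15.4% of all genes tested. DESeq2 called 14 OXPHOS genes lower and 0 higher, against 6.2% and 8.5% of all genes. Past the study's own limits (a log2 fold change over 0.58 in size with an unadjusted p under 0.05) no OXPHOS gene was lower or higher in IH, where 1.13% of all genes tested were lower and 1.55% higher.

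Compared with the control group, the SH group had lower levels of 27 OXPHOS genes, or 50% of those tested. Of all genes tested, 10.5% were lower in SH and 10.2% were higher. The median log2 fold change was -0.24 over the OXPHOS genes and 0.0035 over all genes tested, and 45 of the 54 values were negative. Ndufa3 of complex I was the 1 gene higher in SH. With the study's limits, Ndufa13, Ndufb1, Uqcr10 and Uqcr11 were lower and none was higher, where 1.5% of all genes tested were lower and 1.21% higher. The comparisons against control share their 4 control libraries. Side by side, 5 genes were called lower in both, 5 were called lower in IH and not in SH, 22 in SH and not in IH, and 21 were called in neither. A call in one comparison and not in the other does not show that IH and SH differ, which the direct test below addresses.

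**Figure D2:**
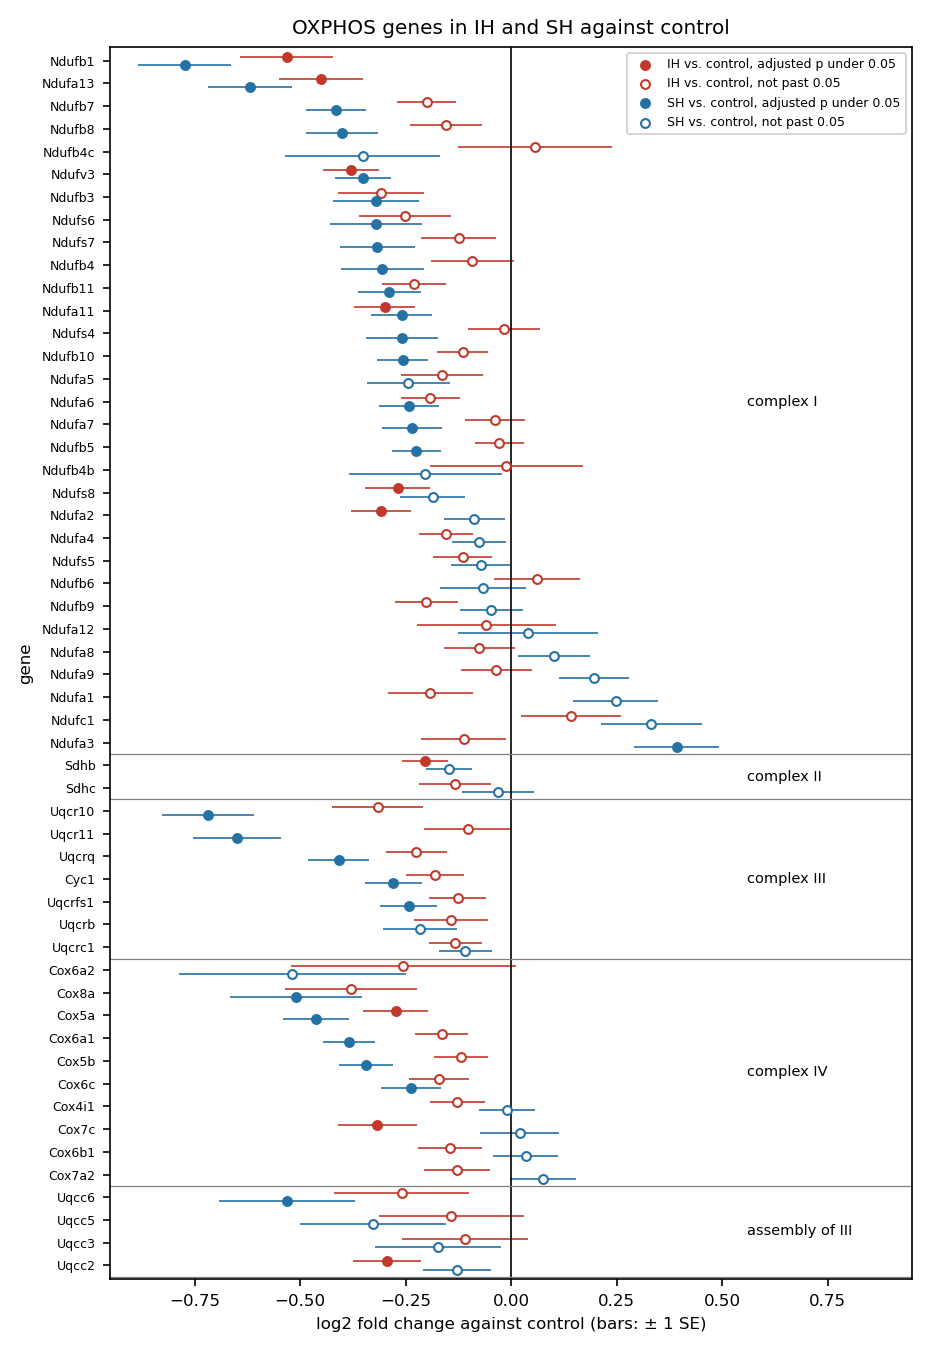
Log2 fold change against control of the 54 OXPHOS genes tested (rows, grouped by complex) in IH (red) and SH (blue), with bars of 1 SE; filled points have an adjusted p under 0.05. The largest falls are Ndufb1, Ndufa13, Uqcr10 and Uqcr11 in SH, and Ndufa3 is the filled point to the right of 0.

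Between the exposed groups, 3 OXPHOS genes differed. Ndufa1 and Ndufa3 were lower in IH than in SH, where 0.899% of all genes tested were lower, and Uqcr11 was higher in IH, where 1.47% of all genes tested were higher. The median log2 fold change of IH vs. SH was 0.071 over the OXPHOS genes, with 33 values positive and 21 negative. None passed the study's limits, against 0.409% of all genes tested lower and 0.572% higher, while 10 were lower and 16 higher at an unadjusted p under 0.05 (7.15% and 8.6% of all genes). DESeq2 called 3 lower and 5 higher (1.57% and 2.52% of all genes).

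In complex I, 16 genes were lower in SH, of which 8 encode the distal part of its membrane arm. Complex I is shaped like an L, with a matrix arm that carries the flavin and the iron-sulfur clusters and a membrane arm that pumps protons. Of the 10 genes for the distal part of the membrane arm that were tested, 8 were lower in SH and 1 in IH. Of the 7 genes for the proximal part, 2 were lower and 1 was higher in SH, and 2 were lower in IH. Of the 11 genes for the matrix arm, 6 were lower in SH and 3 in IH. Over all genes tested, 10.5% were lower and 10.2% higher in SH and 4.85% were lower in IH, so the 1 distal gene lower in IH and the 1 proximal gene higher in SH are near those shares. With the trends removed, 3 distal genes (Ndufb1, Ndufb3 and Ndufb5), 1 proximal gene (Ndufa13) and 2 matrix arm genes (Ndufs4 and Ndufs6) were lower in SH. Of all genes tested, 2.98% were then lower in SH. The median log2 fold change in SH as counted was -0.30 for the distal part, 0.10 for the proximal part and -0.24 for the matrix arm. By library, the SH medians lay between -0.34 and -0.21 for the distal part and between -0.026 and 0.31 for the proximal part, with no overlap. Genes were put into the arms after their values had been seen, and no test was made between arms.

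Ndufb1, a small accessory subunit of the distal membrane arm, had the largest fall among the OXPHOS genes that passed the test, in IH and in SH. Its normalized counts were 493, 565, 588 and 435 in the control libraries, 386, 329, 423, 350.3 and 314 in IH, and 273, 332, 314, 282 and 322 in SH. Every IH and SH library lay below every control library. Ndufb1 fell by 0.53 on the log2 scale in IH (SE 0.11, adjusted p = 0.00857) and by 0.77 in SH (SE 0.11, adjusted p = 0.000619), which left 0.585 of the control level. The IH and SH libraries overlapped (adjusted p = 0.273). Ndufb1 passed in SH with the trends removed, and did not pass in IH (-0.37, adjusted p = 0.0552).

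The other distal subunits lower in SH were Ndufb3, Ndufb4, Ndufb5, Ndufb7, Ndufb8, Ndufb10 and Ndufb11. As counted, Ndufb7 and Ndufb8 fell furthest among these, and in both the IH mean lay between those of control and SH. Ndufb7 had a mean of 1179 ± 14.3 (SD, n = 4) normalized counts in the controls, 1026 ± 99.98 (n = 5) in IH and 884.9 ± 39.3 (n = 5) in SH, with a log2 fold change of -0.41 in SH (adjusted p = 0.00171). Ndufb8 had a mean of 2177 ± 160.4 in control, 1957 ± 263 in IH and 1650.0 ± 74.6 in SH, with -0.40 in SH (adjusted p = 0.00558). In IH neither passed the test (adjusted p = 0.0769 for Ndufb7 and 0.228 for Ndufb8). Ndufb10 and Ndufb5 fell by 0.26 and 0.22 in SH (adjusted p = 0.00919 and 0.0153), and every SH library of both lay below every control library. Ndufb11 fell by 0.29 and Ndufb3 by 0.32 in SH (adjusted p = 0.0154 and 0.0379). With the trends removed, Ndufb7 had -0.11 in SH (adjusted p = 0.286) and Ndufb8 -0.20 (adjusted p = 0.0563), neither of which passed. The calls of Ndufb4, Ndufb10 and Ndufb11 ended too (adjusted p = 0.1802, 0.581 and 0.203), while Ndufb3 had the largest of these falls, at -0.43 (adjusted p = 0.0175).

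In the proximal membrane arm, Ndufa13 and Ndufa11 were lower under both exposures. Ndufa13, also known as GRIM-19 and needed for complex I assembly, had normalized counts of 1795, 1886, 2068 and 1810.0 in control, 1335, 1309, 1601, 1380.0 and 1291 in IH, and 1567, 1120.0, 1194, 1071 and 1199 in SH. All exposed libraries lay below all control libraries, with IH replicate 3 and SH replicate 1 the highest of their groups. Ndufa13 fell by 0.45 in IH (SE 0.10, adjusted p = 0.0114) and by 0.62 in SH (SE 0.10, adjusted p = 0.00121). Ndufa11 fell by 0.30 in IH (adjusted p = 0.0170) and by 0.26 in SH (adjusted p = 0.0214). Ndufa11 passed in neither group with the trends removed (-0.14 in IH, adjusted p = 0.162, and -0.059 in SH, adjusted p = 0.584), and Ndufa13 passed in SH and not in IH (-0.24, adjusted p = 0.0944).

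Ndufa3 and Ndufa1, small membrane subunits of the same proximal part, were higher in SH than in IH. Ndufa3 had normalized counts of 961, 849.9, 936 and 914 in control, 812, 733, 1016, 959.9 and 716 in IH, and 1233, 1118, 1327, 1227 and 1103 in SH. Every SH library was above every library of the other groups. Ndufa3 was 1.31 times the control level in SH (log2 fold change 0.39, SE 0.10, adjusted p = 0.0149) and did not pass the test in IH (-0.11, adjusted p = 0.467), and IH vs. SH was -0.50 (SE 0.096, adjusted p = 0.0131). Ndufa1, encoded on the X chromosome, had 572, 545, 683 and 734 in control, 527, 523, 658, 549 and 518 in IH, and 725, 725, 782, 696 and 831 in SH. Its IH libraries all lay below its SH libraries (-0.44, SE 0.096, adjusted p = 0.0261), while it passed the test against control in neither group (adjusted p = 0.212 in IH and 0.0919 in SH). Without IH replicate 1, 2, 4 or 5, or SH replicate 3 or 5, 1 gene in place of 2 was lower in IH than in SH, and the gene lost was Ndufa1.

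In the matrix arm, Ndufv3 had the smallest adjusted p of any OXPHOS gene in IH. Ndufv3 is an accessory subunit beside the flavin site where NADH is oxidised. Its normalized counts were 1112, 1161, 1150.0 and 1121 in control, 932, 816, 835, 875 and 910.2 in IH, and 966, 848, 885, 809.6 and 945 in SH. The control libraries lay within a narrow band above all 10 exposed libraries. Ndufv3 fell by 0.38 in IH (SE 0.067, adjusted p = 0.00317) and by 0.35 in SH (SE 0.066, adjusted p = 0.00310), and IH vs. SH was -0.028 (SE 0.063, adjusted p = 0.906). Ndufv3 passed in IH with the trends removed, and not in SH (-0.20, adjusted p = 0.0605).

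Ndufa2 and Ndufs8 were lower in IH and did not pass the test in SH. Ndufa2, an accessory subunit with a thioredoxin-like fold, fell by 0.31 in IH (adjusted p = 0.0141) and had -0.087 in SH (adjusted p = 0.409). Ndufs8, a core subunit with iron-sulfur clusters, fell by 0.27 in IH (adjusted p = 0.0374) and had -0.19 in SH (adjusted p = 0.0975). IH vs. SH did not pass the test for either (adjusted p = 0.112 and 0.660). Ndufs7, the core subunit with the last iron-sulfur cluster before ubiquinone, fell by 0.32 in SH (adjusted p = 0.0211), Ndufa6 by 0.24 (adjusted p = 0.0253) and Ndufa7 by 0.23 (adjusted p = 0.0297), and none of these passed in IH. Ndufs4 and Ndufs6, accessory subunits of the matrix arm named after their values were seen, were also lower in SH. Ndufa2 and Ndufs8 did not pass in IH with the trends removed (adjusted p = 0.163 and 0.373), and Ndufs7, Ndufa6 and Ndufa7 did not pass in SH (adjusted p = 0.886, 0.481 and 0.314), where Ndufs7 had -0.020.

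**Figure D3:**
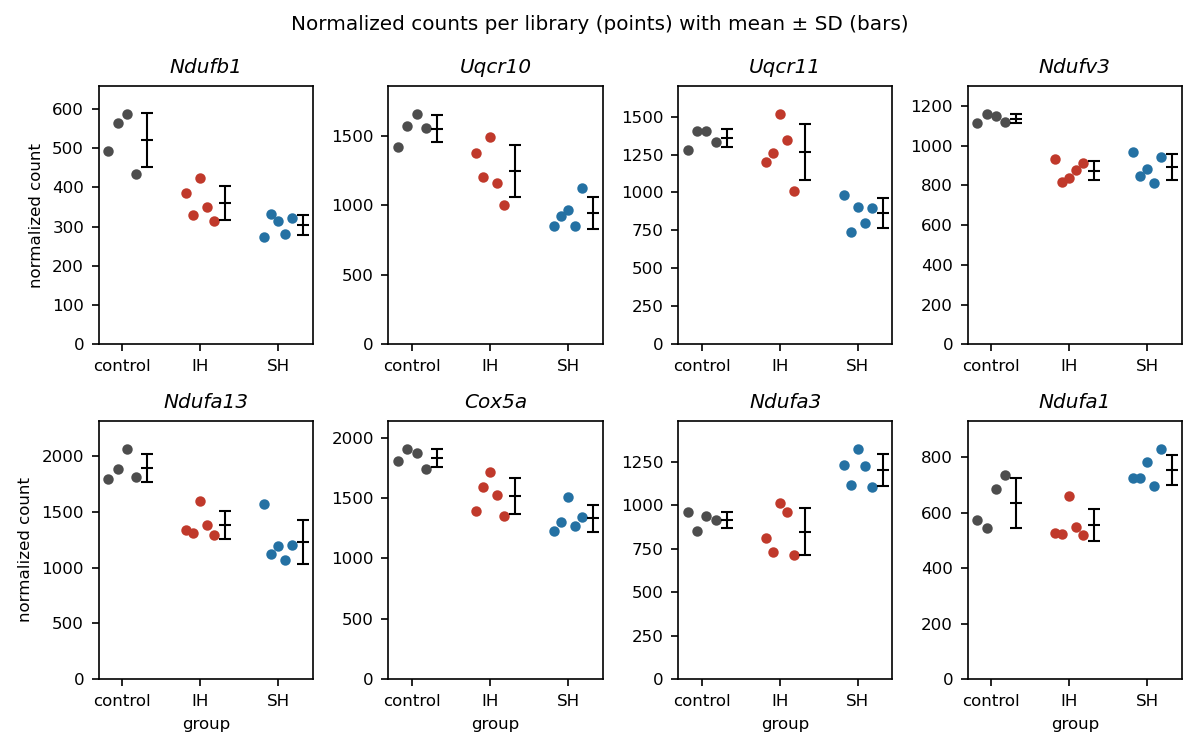
Normalized counts (vertical axes, from 0) of 8 OXPHOS genes in each control (grey), IH (red) and SH (blue) library, with mean ± SD bars. In Ndufb1, Ndufv3, Ndufa13 and Cox5a all exposed libraries lie below the controls, and in Ndufa3 the SH libraries lie above all others.

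Ndufa4 and Ndufa4l2 carry complex I names, although NDUFA4 is now placed in complex IV. Ndufa4 had the highest level per length among the complex I names, at 4194 normalized counts per kilobase of transcript, and passed no test (-0.15 in IH, adjusted p = 0.120, and -0.076 in SH, adjusted p = 0.414). Ndufa4l2, a paralogue known as a target of hypoxia-inducible factor, had normalized counts of 67.3, 71.5, 56.5 and 60.9 in control, 29.3, 17.8, 35.8, 29.6 and 49.4 in IH, and 83.0, 55.3, 42.5, 36.2 and 18.2 in SH. All 5 IH libraries lay below the controls, as did 4 of the 5 SH libraries, while SH replicate 1 lay above them. In a fit without the count minimum Ndufa4l2 had -0.97 in IH (SE 0.35, adjusted p = 0.0821) and -0.43 in SH (SE 0.34, adjusted p = 0.393).

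Reads of 10 members can also match a near-identical copy elsewhere in the genome (at least 300 aligned bases at 95% identity or more), so their levels are uncertain: Cox5b, Cox6c, Cox7c, Ndufa12, Ndufb11, Ndufb4, Ndufb4b, Ndufb4c, Ndufs5 and Uqcrb. Of these 10 genes, 1 was lower in IH and 4 in SH, and of the other 44, 9 were lower in IH and 23 in SH, where 4.85% and 10.5% of all genes tested were lower. The Ndufb4 trio is the clearest case, because the 387 coding bases of Ndufb4 occur without a mismatch in the annotated transcripts of both retrocopies. The first 90 coding bases are shown from GRCm39, with Ndufb4 at chr16:37474632-37474721 (minus strand, first coding exon), Ndufb4b at chr19:25010506-25010595 (plus strand, annotated as a long non-coding RNA) and Ndufb4c at chr15:73681656-73681745 (minus strand, annotated as a transcribed processed pseudogene). No base is in capitals, which would mark a mismatch to Ndufb4.
Ndufb4: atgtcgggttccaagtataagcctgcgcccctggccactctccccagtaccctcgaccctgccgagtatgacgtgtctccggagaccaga
Ndufb4b: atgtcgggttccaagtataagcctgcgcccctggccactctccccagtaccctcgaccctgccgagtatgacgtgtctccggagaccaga
Ndufb4c: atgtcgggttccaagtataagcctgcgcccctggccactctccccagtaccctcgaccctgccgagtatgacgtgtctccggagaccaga

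All these genes had counts. The mean in control was 888.5 ± 123.8 normalized counts for Ndufb4, 97.7 ± 2.46 for Ndufb4b and 101.1 ± 4.83 for Ndufb4c (SD, n = 4 each). In SH, Ndufb4 fell by 0.30 as counted (adjusted p = 0.0386), and the retrocopies had -0.20 (adjusted p = 0.447) and -0.35 (adjusted p = 0.182). How the counting divided reads between these rows is not given in the sources used here.

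Complex II was represented by Sdhb and Sdhc. Sdhb, the iron-sulfur subunit that passes electrons from the flavin of succinate dehydrogenase to ubiquinone, had normalized counts of 1904, 1883, 2024 and 1767 in control, 1564, 1698, 1667, 1701 and 1591 in IH, and 1787, 1650.0, 1691, 1730.0 and 1691 in SH. The IH libraries lay below all controls, and SH replicate 1 overlapped them. Sdhb fell by 0.20 in IH (SE 0.054, adjusted p = 0.0259) and had -0.15 in SH (adjusted p = 0.0644). Sdhc, a membrane anchor, had -0.13 in IH and -0.031 in SH (adjusted p = 0.298 and 0.827). IH vs. SH passed the test for neither gene (adjusted p = 0.676 and 0.614), and with the trends removed, Sdhb did not pass in IH (adjusted p = 0.0532).

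In complex III, Uqcr10, Uqcr11, Uqcrq, Cyc1 and Uqcrfs1 were lower in SH, which is 5 of the 7 genes tested, against 10.5% of all genes tested. The median log2 fold change was -0.28 in SH and -0.14 in IH. In IH no gene passed the adjusted test and 3 had an unadjusted p under 0.05. At that unadjusted limit 14.4% of all genes tested were lower in IH. By library, the complex III median ran from -0.43 to -0.26 in SH and from -0.22 to -0.055 in IH, without overlap. The highest level per length was that of Uqcr10, at 2738 normalized counts per kilobase.

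Uqcr10 and Uqcr11 are small subunits of complex III that sit near cytochrome c1 and the Rieske protein. Uqcr10 had normalized counts of 1423, 1571, 1660.0 and 1557 in control, 1375, 1205, 1491, 1164 and 1006 in IH, and 849, 923, 968, 852 and 1127 in SH. Its SH libraries lay below all controls, with IH between and overlapping both. Uqcr10 fell by 0.72 in SH (SE 0.11, adjusted p = 0.000771) to 0.608 of the control level, and had -0.32 in IH (SE 0.11, adjusted p = 0.0694). Uqcr11 had 1282, 1405, 1408 and 1335 in control, 1198, 1259, 1519, 1344 and 1011 in IH, and 984, 741, 904, 798 and 896 in SH. Every SH library was below every control and every IH library. Uqcr11 fell by 0.65 in SH (SE 0.10, adjusted p = 0.00113), had -0.10 in IH (adjusted p = 0.525), and was 1.46 times higher in IH than in SH (0.55, SE 0.099, adjusted p = 0.0108).

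Among the larger complex III subunits, Cyc1 and Uqcrfs1 carry electrons and Uqcrc1 is a core protein. Cyc1, cytochrome c1, fell by 0.28 in SH (SE 0.068, adjusted p = 0.0109) from a control mean of 2813 ± 94.2 to 2319 ± 212 normalized counts. Uqcrfs1, the Rieske iron-sulfur protein, fell by 0.24 (SE 0.067, adjusted p = 0.0205). Uqcrq, a small subunit historically named as ubiquinone-binding, fell by 0.41 (SE 0.072, adjusted p = 0.00208). Uqcrc1, a core protein that carries no redox centre, had -0.11 (adjusted p = 0.2295). In IH these 4 genes had log2 fold changes between -0.22 and -0.13 and none passed. Cyc1 did not pass in SH with the trends removed (-0.14, adjusted p = 0.121).

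**Figure D4:**
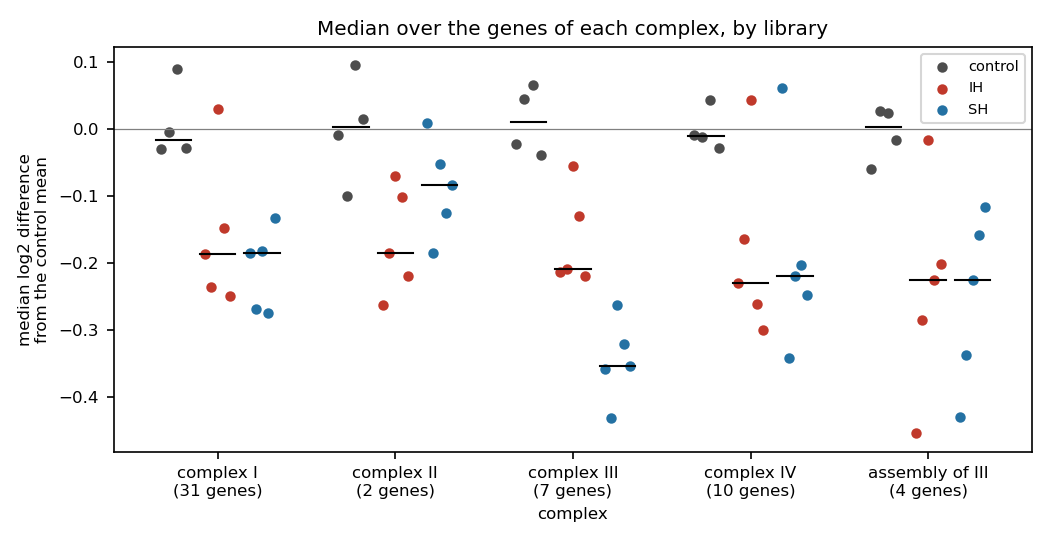
Median log2 difference from the control mean (vertical axis) over the tested genes of each complex, 1 point per library, with the group median as a line. Complex III is the set in which the SH points (-0.43 to -0.26) lie below all IH points (-0.22 to -0.055), and IH replicate 3 is the highest IH point in every set.

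The assembly factors of complex III were followed beside it. Uqcc2, needed for making cytochrome b, had normalized counts of 865, 869, 878 and 891 in control, 684, 687, 852, 696 and 654 in IH, and 724, 800.1, 775, 823 and 884 in SH. IH replicate 3 lay close to the controls and the other 4 IH libraries well below them. Uqcc2 fell by 0.29 in IH (SE 0.080, adjusted p = 0.0291) and had -0.13 in SH (adjusted p = 0.264). Uqcc6, another small factor for complex III assembly, fell by 0.53 in SH (SE 0.16, adjusted p = 0.0306) from 157.3 ± 11.9 to 108.8 ± 21.9 normalized counts, and had -0.26 in IH (adjusted p = 0.282). Uqcc2 in IH, with the trends removed, had -0.051 (adjusted p = 0.749) and Uqcc6 in SH -0.36 (adjusted p = 0.2005), and neither passed.

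In complex IV, Cox5a passed the test against control under both exposures, Cox7c passed in IH, and Cox5b, Cox6a1, Cox6c and Cox8a passed in SH, all of them lower. IH vs. SH passed for none of the last 5 (adjusted p = 0.0583 for Cox7c and 0.0651 to 0.765 for the others). Of all genes tested, 4.85% were lower in IH and 10.5% in SH. The median log2 fold change of the 10 complex IV genes was -0.17 in IH and -0.29 in SH. Cox5a, a nuclear subunit on the matrix side of cytochrome c oxidase, had normalized counts of 1803, 1910.0, 1876 and 1740.0 in control, 1395, 1593, 1716, 1528 and 1350.0 in IH, and 1226, 1304, 1508, 1271 and 1344 in SH. All exposed libraries lay below all controls. Cox5a fell by 0.27 in IH (SE 0.078, adjusted p = 0.0353) and by 0.46 in SH (SE 0.078, adjusted p = 0.00154). Cox5a passed in SH with the trends removed, and not in IH (-0.16, adjusted p = 0.1997).

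Cox6a1 and Cox5b were lower in every SH library than in every IH and control library. Cox6a1, the isoform of subunit VIa outside heart and skeletal muscle, had 4385, 4727, 4661 and 4370.0 normalized counts in the controls, 3737, 3986, 4635, 3979 and 3902 in IH, and 3630.0, 3364, 3361, 3346 and 3672 in SH. It fell by 0.38 in SH (SE 0.062, adjusted p = 0.00119), and IH vs. SH was 0.22 (adjusted p = 0.0651). Cox6a1 in SH had -0.098 with the trends removed and did not pass (adjusted p = 0.182). Cox5b, a zinc-binding subunit, fell by 0.34 in SH (SE 0.064, adjusted p = 0.00276), and IH vs. SH was 0.22 (adjusted p = 0.0666). Cox6a2, the heart and muscle isoform, was near the count minimum at a mean of 74.6 ± 13.1 in control and 52.1 ± 24.2 in SH, and passed no test (adjusted p = 0.532 in IH and 0.178 in SH).

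Cox8a and Cox4i1 had the highest levels per length of the members, at 8813 and 9322 normalized counts per kilobase. Cox8a, a small membrane subunit, had 5697, 6086, 6676 and 6055 in control, 4518, 4472, 5276, 4655 and 4643 in IH, and 6757, 3577, 3987, 3297 and 3891 in SH. SH replicate 1 was above every control library, while the other 4 SH libraries were below all of them. Cox8a fell by 0.51 in SH (SE 0.16, adjusted p = 0.0316) and had -0.38 in IH (SE 0.16, adjusted p = 0.118), with all IH libraries below control. Cox4i1, the common isoform of the regulatory subunit that binds ATP, had -0.13 in IH (SE 0.066, adjusted p = 0.206) and -0.0095 in SH (SE 0.066, adjusted p = 0.936). Cox7c, named after its values were seen, fell by 0.32 in IH (adjusted p = 0.0414) and had 0.021 in SH (adjusted p = 0.896). Cox7c in IH and Cox6c and Cox8a in SH did not pass with the trends removed (adjusted p = 0.0993, 0.0975 and 0.308), and Cox8a in SH had -0.24.

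The length and GC content trends differed between libraries, and removing them changed the counts against control. The median transcript length of the OXPHOS genes was 832 bases against 3381 over all genes with a match in the annotation. Over all genes, the slope of a library's log2 level on doubling of length ran from -0.061 to -0.00068 in control, -0.085 to 0.039 in IH, with IH replicate 3 lowest, and 0.0073 to 0.021 in SH. The slope per 10 points of GC content ran from 0.023 to 0.22 in control, -0.054 to 0.0068 in IH and -0.17 to 0.049 in SH. Among transcripts of at most 1000 bases, the 338 genes that are no members had median log2 fold changes of -0.15 under either exposure, and the 35 members had -0.15 (IH) and -0.24 (SH). Of those short non-members 12.7% were lower in IH and 18% in SH, against 20% and 45.7% of the short members. With smooth trends on GC content and length removed from each library, 2 OXPHOS genes were lower in IH (Ndufv3 and Ndufb3), and 12 were lower and 4 higher in SH, with medians of -0.056 and -0.14. Over all genes tested, 2.79% were then lower and 2.4% higher in IH, and 2.98% lower and 2.9% higher in SH. These trends moved with the groups, and their part in the differences was not tested.

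With the trends removed, complex III had the lowest SH median of the complexes, where complex IV had it (-0.29) as counted. The complex III median was then -0.34 in SH, against -0.11 in complex I and -0.12 in both complex II and complex IV. The 12 genes lower in SH were Ndufa13, Ndufb1, Ndufb3, Ndufb5, Ndufs4, Ndufs6, Uqcr10, Uqcr11, Uqcrfs1, Uqcrq, Cox5a and Cox5b, each of which was also called before. Uqcr11 had -0.66 (adjusted p = 0.00227), Ndufb1 -0.57 (adjusted p = 0.00638) and Uqcr10 -0.48 (adjusted p = 0.00888). Ndufa3 was higher by 0.52 (adjusted p = 0.00503), and Ndufa1, Ndufa8 and Cox4i1 were also higher. Cox4i1 changed direction, from -0.0095 to 0.24 (adjusted p = 0.00580).

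IH vs. SH moved little when the trends were removed. The median absolute shift of the 54 log2 fold changes was 0.018 in IH vs. SH, against 0.12 in IH vs. control and 0.13 in SH vs. control. Uqcr11 was 0.56 higher in IH than in SH (adjusted p = 0.00775), Ndufa3 was 0.49 lower (-0.49, adjusted p = 0.00798) and Ndufa1 0.41 lower (-0.41, adjusted p = 0.0123). In all, 4 genes were then lower in IH than in SH, adding Cox4i1 and Cox7c, and 5 were higher, adding Uqcr10, Ndufb5, Cox5b and Cox6a1, against 1.29% lower and 1.13% higher over all genes tested.

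**Figure D5:**
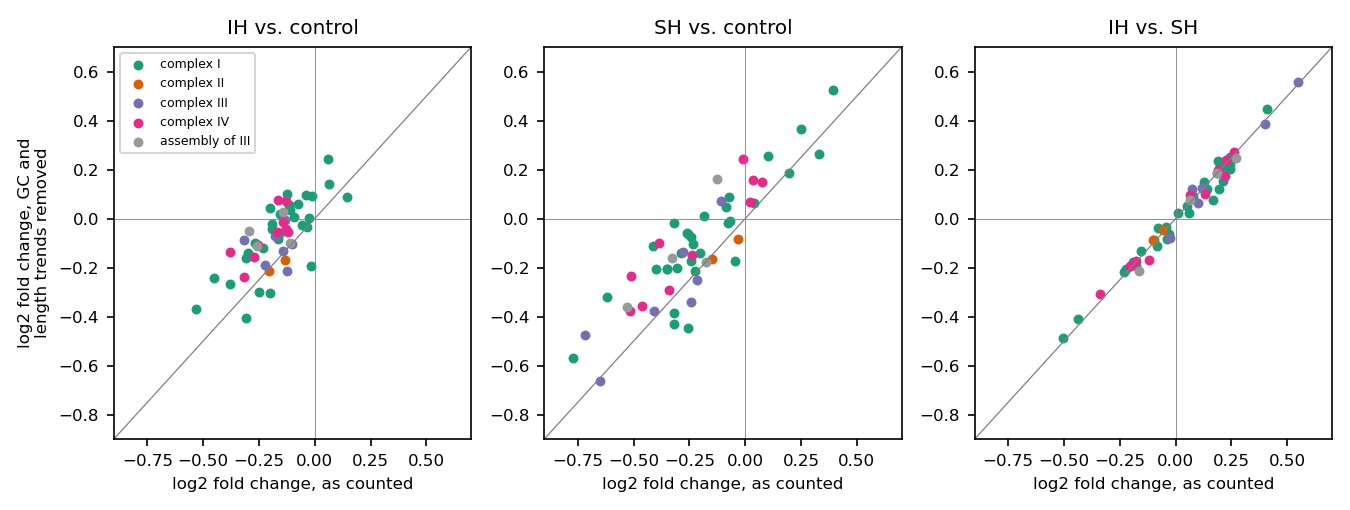
Log2 fold change of each OXPHOS gene with the GC and length trends removed (vertical axis) against its value as counted (horizontal axis) in the 3 comparisons, coloured by complex; the diagonal marks no change. Points move off the diagonal in the comparisons against control (median absolute shift 0.12 and 0.13) and lie closer to it in IH vs. SH (median 0.018, largest 0.093 for Ndufa13).

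Single libraries changed the count in IH more than that in SH. The shares of all genes called with a library left out are not given here. Whether calls moved over all genes as well is therefore not shown. Without IH replicate 3, 21 OXPHOS genes were lower in IH, among them all 10 called with it. Leaving out any one control library, or IH replicate 1, 4 or 5, brought the count to between 4 and 6, the lowest without control replicate 2. Ndufa2, Ndufa13, Ndufb1 and Ndufv3 stayed lower in IH whichever of the 14 libraries was left out. In SH the count fell to 17 without control replicate 2 and to 16 without control replicate 3, and 14 of the 27 genes were lower under all 14 omissions: Ndufa13, Ndufb1, Ndufb5, Ndufb7, Ndufb8, Ndufb10, Ndufv3, Cyc1, Uqcr10, Uqcr11, Uqcrq, Cox5a, Cox5b and Cox6a1. With the mean log2 level of the choroid plexus markers above the count minimum as a covariate, 7 genes were lower in IH and 23 in SH. The shares of all genes called in that fit are not given here either.

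Genes that build or regulate the chain, from lists of other pathway members, were counted next. Of 8 complex I assembly factors tested, Dmac1, Dmac2, Ndufaf3, Ndufaf8 and Ecsit were lower in SH and none passed in IH. Of 16 complex IV assembly factors, Surf1 and Cox16 were lower in SH, a share near the 10.5% of all genes tested. Of 2 complex II assembly factors, Sdhaf1 was lower and Sdhaf3 higher in SH. Of the 3 complex III assembly factors tested from these lists, Uqcc2 was lower in IH, as above. The lists leave out the members Uqcc5 and Uqcc6, of which Uqcc6 was lower in SH, as above. The 1 complex V assembly factor tested passed in neither group. With the trends removed, Dmac1 and Cox16 were lower in SH (adjusted p = 0.0101 and 0.0145), and the others named here passed in neither group. These symbols and those of the next paragraph were named after their values were seen.

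Higd2a, a factor in the assembly of complex IV and supercomplexes, was lower in SH than in control and IH. Its normalized counts averaged 1032 ± 21.3 (SD, n = 4) in control, 924.2 ± 124 (n = 5) under IH and 718.2 ± 54.1 (n = 5) under SH. It fell by 0.52 in SH (SE 0.091, adjusted p = 0.00186) and was higher in IH than in SH by 0.36 (SE 0.086, adjusted p = 0.0380), and both calls held with the trends removed (adjusted p = 0.0119 and 0.0150). Of 6 regulators of respiratory genes tested, Gabpa, the DNA-binding subunit of the ETS factor GABP (also called NRF2, distinct from Nfe2l2), was higher in IH (0.56, SE 0.089, adjusted p = 0.00154) and in SH (0.30, adjusted p = 0.0249), and its partner Gabpb1 was higher in IH (0.39, adjusted p = 0.0265). Over all genes tested, 6.08% were higher in IH and 10.2% in SH, and 1 of 6 in SH is near that share. With the trends removed, Gabpa and Gabpb1 were higher in IH (adjusted p = 0.0237 and 0.0335) and Gabpa did not pass in SH (0.12, adjusted p = 0.489). Dld, a subunit of pyruvate dehydrogenase, rose by 0.18 in SH (adjusted p = 0.0149) and did not pass with the trends removed (-0.027, adjusted p = 0.759).

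Promoters of OXPHOS genes are known for sites of NRF1, GABP, YY1, SP1 and ERR factors. The RefSeq table of promoters (GRCm38.p6, not the build of the counts) matched 42 of the 55 members with 44 promoters, and the 250 bases before each start were searched on both strands. The NRF1 letters CGCATGCG occurred in 6.82% of the member promoters and 1.55% of all 32851 promoters, in Cox6a1, Ndufa8 and Ndufa11. The ETS letters CCGGAAG occurred in 11.4% against 6.91%, and the SP1 letters GGGCGGG in 25.0% against 23.4%. The YY1 letters AAGATGGC and the ERR letters TCAAGGTCA occurred in no member promoter, against 1.56% and 0.387% of all promoters. Shown are the promoters of Cox6a1 (chr5:115348959-115349208, minus strand), which holds 3 of the 5 motifs, of Uqcr11 (chr10:80406822-80407071, minus strand), which was lower in SH than in IH, and of Ndufa3 (chr7:3617123-3617372, plus strand), which was higher in SH. Capitals mark the matches, in Cox6a1 NRF1, SP1 and ETS in that order, in Uqcr11 ETS and in Ndufa3 SP1.
Cox6a1: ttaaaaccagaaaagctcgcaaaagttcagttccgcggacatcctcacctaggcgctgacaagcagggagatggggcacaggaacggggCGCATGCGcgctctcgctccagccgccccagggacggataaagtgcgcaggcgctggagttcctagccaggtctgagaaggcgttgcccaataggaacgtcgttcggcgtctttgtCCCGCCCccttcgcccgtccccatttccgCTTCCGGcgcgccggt
Uqcr11: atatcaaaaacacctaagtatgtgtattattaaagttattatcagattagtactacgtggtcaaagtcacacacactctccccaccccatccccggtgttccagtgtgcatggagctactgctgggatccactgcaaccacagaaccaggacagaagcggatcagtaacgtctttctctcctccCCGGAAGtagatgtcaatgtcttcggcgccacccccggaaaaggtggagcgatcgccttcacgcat
Ndufa3: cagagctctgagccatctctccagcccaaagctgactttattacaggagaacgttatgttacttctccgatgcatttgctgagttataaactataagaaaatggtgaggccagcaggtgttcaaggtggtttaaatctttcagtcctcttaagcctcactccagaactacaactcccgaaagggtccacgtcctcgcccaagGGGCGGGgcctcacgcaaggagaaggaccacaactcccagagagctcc

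The letters were found before genes that fell and before genes that did not. The ETS letters stood before Uqcr11 and Ndufb7, which were lower in SH, and also before Cox6b1 and Ndufb6, which were called in no comparison. The SP1 letters stood before Ndufa3, which was higher in SH, and before Ndufa13, Ndufb8 and Ndufv3, which were lower. A match of letters is a description of the window and not evidence of binding.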

How the data were processed

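Poly(A) RNA of 14 hippocampi was sequenced as paired reads with a directional kit. Per the study's methods and the submitters' processing notes, the authors trimmed reads with fastp 0.23.4, aligned them to GRCm39 with HISAT2 2.2.1 and quantified genes with StringTie 2.2.1. The authors deposited 1 table of these estimated counts, not normalized, for 7756 genes. Per the study's methods these were protein-coding genes past a low-signal limit of 40 in each group, kept if their processed signal (log2, scaled at the 80th percentile, relative to control) differed by at least 0.25. Not every row meets this description as counted here: 418 of the 7756 genes had a mean count under 40 in a group, and the members Ndufb4b and Ndufb4c are not annotated as protein-coding. The annotation used is not given in the sources used here. Counts were rounded to whole numbers, as 10 genes held values that were not whole.

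Members were found by symbol. One edgeR 4.0.16 quasi-likelihood fit (R 4.3.3) of the 3 groups used TMM scaling and kept 7338 genes whose mean was no lower than 40 counts in any group. Benjamini-Hochberg adjustment ran over all genes tested, with a threshold of 0.05. The study's methods do not name the test behind its RNA-seq p-values. Depth was between 7203659 and 11777101 counts, and intervals and standard errors cover the spread between libraries. Lengths, GC content and positions came from the canonical GENCODE vM39 transcripts (7723 genes matched), and near-identical copies were sought with minimap2 2.31. The test was checked on simulated data.

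Alternatives were DESeq2 1.42.0, other scalings and filters, fits of the groups compared alone, removal of GC and length trends (loess, span 0.5), the choroid plexus covariate, the replicate number as a block and each library left out. Removing either trend alone and leaving out genes with a copy were added after seeing the data. The members, gene lists and tests were chosen with earlier results of these data known. Genes were named if they passed a test in any comparison (up to 30 by the smallest adjusted p), had the highest level per length or the largest change against control in their complex, or were tissue-restricted isoforms. Complex I arms were assigned after the values were seen.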

Additional observations from a re-analysis of the deposited data

Results flagged for a closer look

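In 10 of 102 groups of 4 or 5 libraries, 1 library lay farther from the others than Dixon's 95% limit allows. Chance gives about 1 in 20 for independent groups. These groups are genes read in the same libraries, so the count cannot be held against that share. In 7 of these it was IH replicate 3, the highest of the IH libraries each time, with normalized counts of 4635 for Cox6a1, 1601 for Ndufa13, 658.4 for Ndufa1, 851.6 for Uqcc2, 5276 for Cox8a, 964.9 for Ndufb3 and 7954 for Cox4i1. In the other 3 it was SH replicate 1, the highest of the SH libraries, with 1567 for Ndufa13, 978.4 for Ndufa7 and 6757 for Cox8a. IH replicate 3 also had the lowest slope of level on transcript length of all libraries (-0.085 per doubling), and SH replicate 1 had the highest choroid plexus sum of its group (92190); their part in these values was not tested.

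The effects of IH and SH differed by the direct test for Uqcr11 (IH vs. SH log2 fold change 0.55, adjusted p = 0.0108), Ndufa3 (-0.50, adjusted p = 0.0131) and Ndufa1 (-0.44, adjusted p = 0.0261).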

How the results depend on the processing

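With the GC and length trends removed, 2 OXPHOS genes were lower in IH (10 as reported) with a median of -0.056, 12 were lower and 4 higher in SH (27 and 1) with a median of -0.14, and 4 were lower and 5 higher in IH vs. SH (2 and 1). With the length trend alone removed, the counts were 4 lower in IH, 13 lower and 6 higher in SH and 3 higher in IH vs. SH, with medians of -0.033 and -0.094 against control; with the GC trend alone, 4 were lower in IH and 13 in SH. The study's limits left 0 in IH, 4 lower and 0 higher in SH, and 0 in IH vs. SH. DESeq2 gave 2 higher in SH and 5 higher in IH vs. SH, scaling by the 80th percentile 2 higher in IH vs. SH, and scaling by library total or fitting only the compared groups 2 higher in SH.

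With 1 library left out, 4 to 21 genes were lower in IH, 16 to 27 lower and 1 to 2 higher in SH, and 1 to 3 lower and 1 to 3 higher in IH vs. SH. Shares over all genes are not given for these fits, for the block, for either trend alone or for the other scalings. Medians ran from -0.20 to -0.14 in IH and -0.26 to -0.22 in SH. Same-numbered libraries correlated between -0.30 and 0.46, with 6 of 13 pairs above 0.1. Differently numbered libraries were not compared in this way, so these values cannot decide whether the numbers pair the libraries. With the replicate number as a block, 9 were lower in IH, 28 lower and 2 higher in SH, and 2 lower and 1 higher in IH vs. SH. Over all alternatives, single named genes kept their direction and their side of the threshold in 2237 cases, lost the call in 146, gained one in 46 and changed sign in 43; the causes were not tested.

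Of these changes of sign, the one in which the gene was called on either side was Cox4i1 in SH, at 0.24 with both trends removed (adjusted p = 0.00580). Cox4i1 in SH was also 0.15 with the length trend removed, 0.16 with the GC trend removed, 0.012 by library total and 0.0026 with the block. With both trends removed, values in IH became 0.075 for Cox6a1, 0.043 for Ndufb7, 0.018 for Ndufb8, 0.056 for Ndufb10, 0.037 for Ndufa3, 0.0012 for Ndufb5, 0.10 for Ndufs7, 0.097 for Ndufa7 and 0.072 for Cox4i1, and in SH 0.046 for Ndufa2, 0.16 for Uqcc2 and 0.012 for Ndufs8. With the length trend alone removed, values in IH became 0.010 for Cox6a1, 0.0088 for Cox5b, 1.13e-05 for Ndufb8, 0.036 for Ndufb10, 0.069 for Ndufa3, 0.084 for Ndufb5, 0.011 for Ndufs7, 0.00550 for Ndufa1, 0.12 for Ndufa7, 0.014 for Cox6c, 0.031 for Ndufa4 and 0.014 for Cox4i1. In the same setting they became 0.088 for Ndufa2, 0.055 for Uqcc2 and 0.11 for Ndufa4 in SH, and -0.013 for Ndufb3 in IH vs. SH. With the GC trend alone removed, Ndufs7 in IH became 0.025 and Uqcc2 in SH 0.054. With 1 library left out, Ndufa7 in IH ran from -0.061 to 0.0052 and Cox4i1 in SH from -0.051 to 0.012. In IH vs. SH, Ndufv3 ran from -0.060 to 0.0030, Ndufa11 from -0.078 to 0.0011, Cox6c from -0.0081 to 0.098 and Ndufb3 from -0.072 to 0.047.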
